A study of Mus musculus with 24 samples.

Results

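Testes of *Atad2* knockout (KO) mice taken on postnatal day 26 were compared here with those taken on day 24, 2 libraries against 2 of the 24 in the series, over all genes. Wild-type (WT) testes of the same days, with 2 libraries a day, are set beside them. The KO animals are homozygous for an allele in which a *lacZ* trapping cassette is spliced onto *Atad2*, and from which a Cre recombinase driven by the ubiquitous CMV promoter removed the *neo* cassette and an internal exon, so that a fusion protein without ATAD2 function is made from the gene's own promoter. The recombination is not limited to germ cells, so the testis soma carries the allele too. The labels give 1 protocol text that mentions purified spermatogenic fractions, whereas the design text speaks of testes; markers of Sertoli, Leydig and peritubular cells were read in every library. Libraries are named by genotype, day and replicate, as in KO_d26_2, and the study calls its replicates biological.

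In the first spermatogenic wave of the mouse, germ cells enter meiosis together and the first haploid round spermatids appear at about the third postnatal week. Round spermatids build the acrosome, the vesicle that helps the sperm through the coat of the egg, and begin the tail, and they store many messages that are translated only after transcription stops in elongating spermatids. There, histones are replaced by transition proteins and then by protamines. ATAD2 is a chromatin factor that is abundant in spermatids, and the study examined how its loss alters histone chaperone turnover, transcription and the exchange of histones for protamines. Between days 24 and 26 the wave moves through this window. In RNA of whole testis, fewer cells of a type and less RNA per cell cannot be told apart.

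The 4 KO libraries held 14410976 to 19288285 counts assigned to genes, and 19162 to 19381 genes had a count. Levels are given in CPM, a gene's share of the counts of its library after TMM scaling, and changes as log2 fold changes of day 26 over day 24 with the standard error (SE) from edgeR. A gene is called changed at an edgeR adjusted p under 0.05. *Atad2* itself (chromosome 15, minus strand) stood at 43.6 and 46 CPM in KO at day 24 and at 52.4 and 53.7 CPM at day 26, against 107 to 138 CPM in the 4 WT libraries. The KO libraries were thus below all WT libraries on both days, and the change between the KO days did not pass the test (log2 fold change 0.24, SE 0.127, adjusted p 0.174).

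The libraries of replicate number 2 differed from those of number 1 in both genotypes and on both days, among other genes in those of the epididymis. *Crisp1*, a secretory protein gene of the epididymis, the duct beside the testis, was at 136 CPM in KO_d24_2 and 110 CPM in KO_d26_2 but at 0.0699 and 0.0687 CPM in the libraries numbered 1. WT showed the same split, with 644 and 476 CPM against 0.125 and 0.173 CPM. *Adam7*, another epididymal gene, had no count in any library numbered 1 and lay between 19.3 and 65.2 CPM in those numbered 2. *Lcn5* had no count in number 1 and 0.0581 to 31.7 CPM in number 2 (under 3 counts in both KO libraries). *Rnase10* showed no such split (1.88 to 6.43 CPM over the 8 libraries), and *Lcn8* had no count. The 11 listed genes together, *Crisp1* included, were at 48.4 and 71 CPM in the KO libraries numbered 1 and at 193 and 199 CPM in those numbered 2. In WT they were at 24.8 and 84.9 against 817 and 604 CPM. *Cst8* was the member called higher in KO (log2 fold change 0.86), a call lost in 5 of 8 fits without 1 library. The split of *Cst8* and the remaining members is not given singly. Each day holds 1 library of either kind, and medians within a number are given for some of the lists. For the other lists described here, the KO medians of both numbers had the same sign, except for leptotene and zygotene genes (-0.02 and 0.02) and the piRNA pathway (0.12 and -0.05). The part of this tissue in the changes below was not tested otherwise.

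Between days 24 and 26 of KO, 4897 of 16816 genes tested were called changed, 29.1% of them, 3052 higher (18.1%) and 1845 lower (11%). The genes that rose included those of spermatids. The outer dense fibre and fibrous sheath, the acrosome and the testis-specific kinases were in front by share called higher. Those that fell included smooth muscle genes of the tubule wall, matrix genes and many X-linked genes. Most changes were small. The median log2 fold change was 0.58 among the genes called higher and -0.52 among those called lower, 454 genes rose (2.7%) and 102 fell (0.607%) by more than 2-fold, and the 2 groups did not overlap for any gene called, as they did not for 72.9% of all genes tested. The count rests on how the spread is estimated. With the day 20 and day 22 libraries added to the fit, 0 genes were called, with 3440 at an unadjusted p under 0.05 against 7049 in the fit reported, and with WT_d20_2 left out of that larger fit 1290 were called. DESeq2 on the same 8 libraries called 4116. Scaling by DESeq2 size factors gave 3685 higher and 1213 lower, and upper quartile scaling gave 2676 and 2464.

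Any 1 KO library left out also lowered the count, to 2054 without KO_d24_1, 2295 without KO_d24_2, 2571 without KO_d26_1 and 1240 without KO_d26_2. Of the 4897 genes, 1135 (23.2%; 991 higher, 144 lower) were called whichever of the 8 libraries was left out. No gene called both in the fit reported and in one of these fits changed sign. Genes described below as changed without a remark on this point are among those 1135, and with all 24 libraries in the fit none of them was called.

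In WT, the same comparison called 1337 genes (7.95%), 1177 higher (7%) and 160 lower (0.951%). Of these, 974 were also called in KO, which is 72.8% of the WT calls and 19.9% of the KO calls, and 972 of the 974 changed in the same direction. The 2 WT groups vary more, with a biological coefficient of variation of 0.176 over the 4 WT libraries against 0.0787 over the 4 KO libraries, so the counts are not a measure of which genotype changed more. The difference between the genotypes was tested as such, and it passed for 0 genes (0%) with edgeR. At an unadjusted p under 0.05 there were 2791 genes (16.6%), and DESeq2 called 547. Without WT_d24_2, edgeR called 433, and without WT_d26_2 it called 29.

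**Figure D1:**
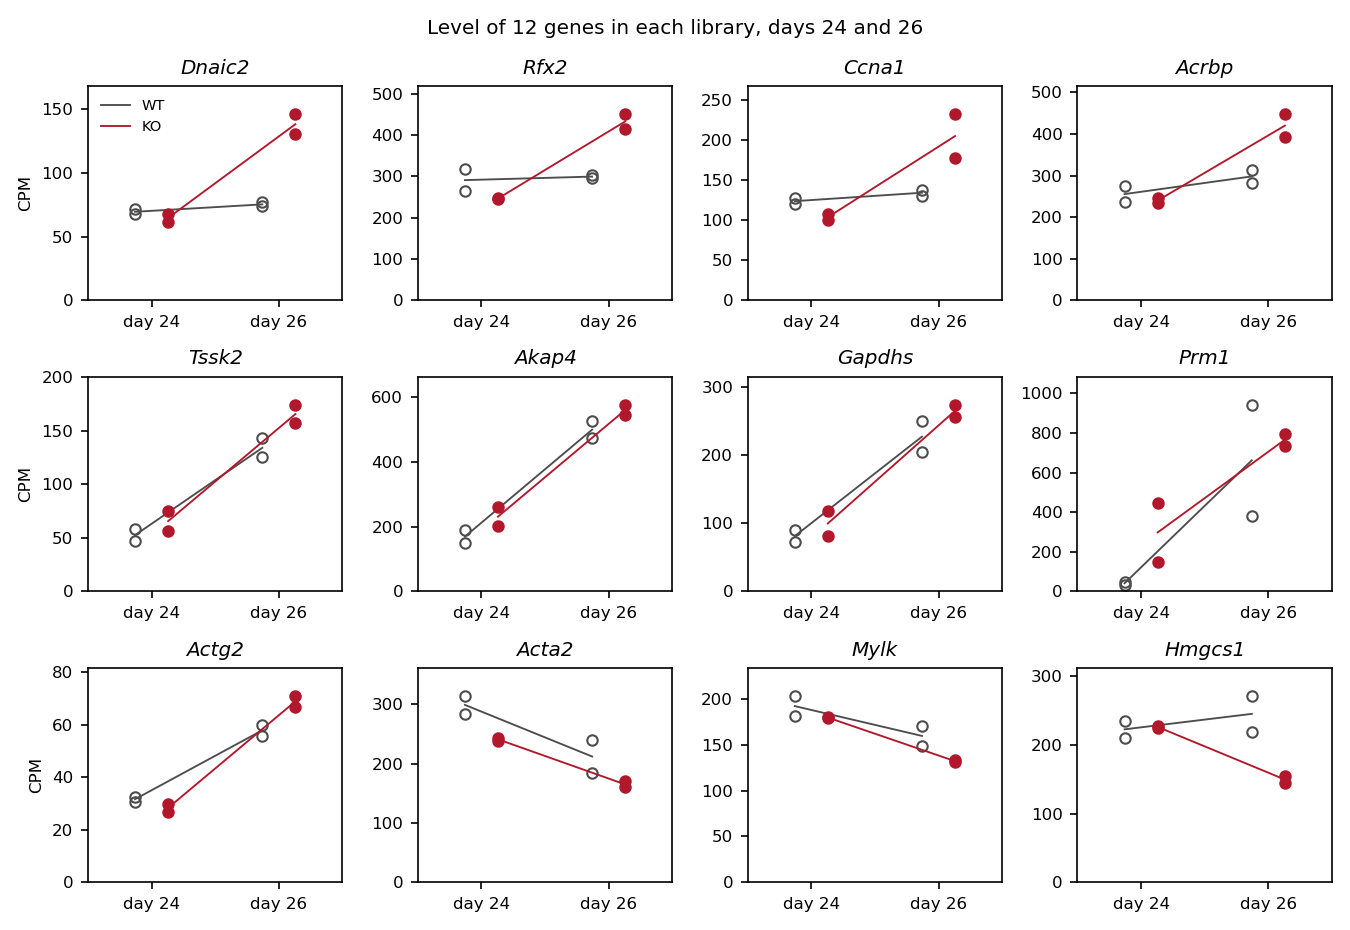
Level in CPM (linear axis from 0) of 12 genes in each of the 8 libraries of days 24 and 26, with filled red points for KO, open grey points for WT and lines joining the group means. In KO, 8 of the 12 genes were called higher at day 26 and 3 lower, and *Prm1* did not pass, with KO_d24_1 at 448 CPM and KO_d24_2 at 148 CPM.

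Genes of round spermatids rose. Of 23 tested, 19 were called higher and 0 lower, with a median log2 fold change of 0.76 (0.58 in WT). *Tssk2*, a kinase gene confined to spermatids (chr16:17898637-17900024 of GRCm38, plus strand), stood at 75 and 56.2 CPM at day 24 and at 157 and 174 CPM at day 26. That is a 2.52-fold rise (log2 fold change 1.33, SE 0.154, adjusted p 0.00113), and WT moved by the same amount, from 58 and 47.1 to 143 and 125 CPM. *Rfx2*, a transcription factor of spermatid and cilium genes, rose from 246 and 247 CPM to 415 and 451 CPM (log2 fold change 0.81, SE 0.0943, adjusted p 9.52e-04). In WT it was at 317 and 265 CPM and then at 304 and 295 CPM, within the spread of the day 24 libraries. *Pgk2*, the sperm form of a glycolytic enzyme encoded by an autosomal retrogene, went from 287 and 259 to 452 and 470 CPM, and *Spata16*, needed for acrosome formation, from 290 and 332 to 430 and 450 CPM. Over this list the differences within replicate numbers 1 and 2 had medians of 0.65 and 0.86 in KO and of 0.34 and 0.97 in WT. The KO median was thus the higher only in number 1.

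The acrosome list behaved alike, with 28 of 33 called higher, 0 lower and a median of 0.71 (0.60 in WT). Within numbers 1 and 2 the medians were 0.64 and 0.77 in KO and 0.34 and 0.90 in WT. *Acrbp*, the binding protein of proacrosin, was at 247 and 233 CPM and then at 392 and 448 CPM (log2 fold change 0.81, SE 0.103, adjusted p 0.00111). *Ccin*, which encodes calicin of the sperm head skeleton, rose from 48.9 and 36 CPM to 99.4 and 102 CPM. It rose in WT too, by a log2 fold change of 1.99 against 1.25 in KO, from a lower day 24 level of 23.1 and 22.5 CPM to 94.4 and 87 CPM. *Zpbp2*, a protein of the acrosomal matrix, rose by 0.54 (SE 0.0912), and *Spink2*, a protease inhibitor of the acrosome, by 0.51 (SE 0.103), the latter without a call when KO_d24_1 (adjusted p 0.0548) or KO_d26_2 (adjusted p 0.081) was left out. Of 18 genes of sperm and egg fusion, 13 were called higher and 0 lower. *Adam3*, which sperm need to reach the egg, rose from 709 and 735 CPM to 1158 and 1270 CPM (log2 fold change 0.75, SE 0.0799, adjusted p 9.24e-04). *Calr3*, a testis calreticulin that helps ADAM3 to fold, was at 34.9 and 19.6 CPM and then at 55.3 and 54.9 CPM, and its call (adjusted p 0.044) was lost in 5 of the 8 fits with a library left out, at adjusted p 0.0834 to 0.164. In the 4 fits without 1 KO library, 9 to 16 round spermatid, 15 to 21 acrosome and 5 to 7 fusion genes were called higher, the fewest without KO_d26_2 (for fusion also without KO_d24_1).

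Of the lists, that of the outer dense fibre and fibrous sheath of the sperm tail held the largest share of calls. Among outer dense fibre and fibrous sheath genes, 26 of 28 were called higher and 0 lower, with a median of 0.85 (0.47 in WT), and 18 were called higher without KO_d26_2. *Akap4*, the main anchoring protein of the fibrous sheath and a gene of the X chromosome (chrX:7067519-7078609, plus strand), was at 259 and 202 CPM and then at 544 and 575 CPM. Its log2 fold change of 1.28 (SE 0.146, adjusted p 0.00113) stands beside 1.56 in WT. *Odf2*, a component of the outer dense fibres, rose from 977 and 865 to 1586 and 1581 CPM (log2 fold change 0.78, SE 0.107), and *Tcp11*, a gene of sperm motility, from 446 and 397 to 840 and 911 CPM (1.05, SE 0.0979). *Spem1*, which is needed to shed cytoplasm from the neck of the sperm, rose 2.99-fold, from 32.4 and 17.1 to 70.2 and 77.3 CPM, and its adjusted p of 0.016 became 0.0541 without KO_d26_1 and 0.0893 without KO_d26_2.

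Of 51 axoneme and ciliary transport genes, 37 were called higher and 0 lower in KO, with a median of 0.42. In WT, whose libraries vary more, 3 were called higher, with a median of 0.13. Within numbers 1 and 2 the medians were 0.48 and 0.42 in KO and 0.00 and 0.28 in WT. *Dnaic2*, an intermediate chain of the outer dynein arm (chr11:114727408-114757889, plus strand), was at 67.6 and 61.6 CPM in KO at day 24 and at 130 and 146 CPM at day 26, a log2 fold change of 1.09 (SE 0.0921, adjusted p 9.24e-04). In WT it was at 71.5 and 67.3 CPM and at 73.7 and 76.7 CPM. The KO libraries of day 26 lie above all others, and the difference between genotypes of 0.98 had the smallest unadjusted p of all genes (1.82e-05), with an edgeR adjusted p of 0.114. *Rsph6a*, a radial spoke gene, rose from 103 and 96.2 to 191 and 192 CPM, against 114 and 102 and then 119 and 125 CPM in WT. *Tcte1*, a gene of the dynein regulatory complex, rose from 194 and 187 to 336 and 416 CPM, against 270 and 224 and then 238 and 234 CPM in WT. *Dnah17*, a heavy chain of the outer arm, rose by 0.43 (SE 0.0705). *Dnah8*, the most abundant gene of the list at 3443 to 4290 CPM, rose by 0.30 (SE 0.0812, adjusted p 0.0202), and *Ift140*, of the transport machinery, by 0.41 (SE 0.0884). Calls of *Dnah8* were lost without any 1 of the 4 KO libraries (adjusted p 0.0908 to 0.131) and those of *Ift140* without KO_d24_1, KO_d24_2 or KO_d26_2 (0.0517 to 0.0844). In the 4 fits without 1 KO library the list had 11 (without KO_d26_2), 13 (without KO_d24_1), 18 (without KO_d26_1) and 23 calls (without KO_d24_2). At an unadjusted p under 0.05, 19 of the 51 differed between genotypes, beside 16.6% of all genes.

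**Figure D2:**
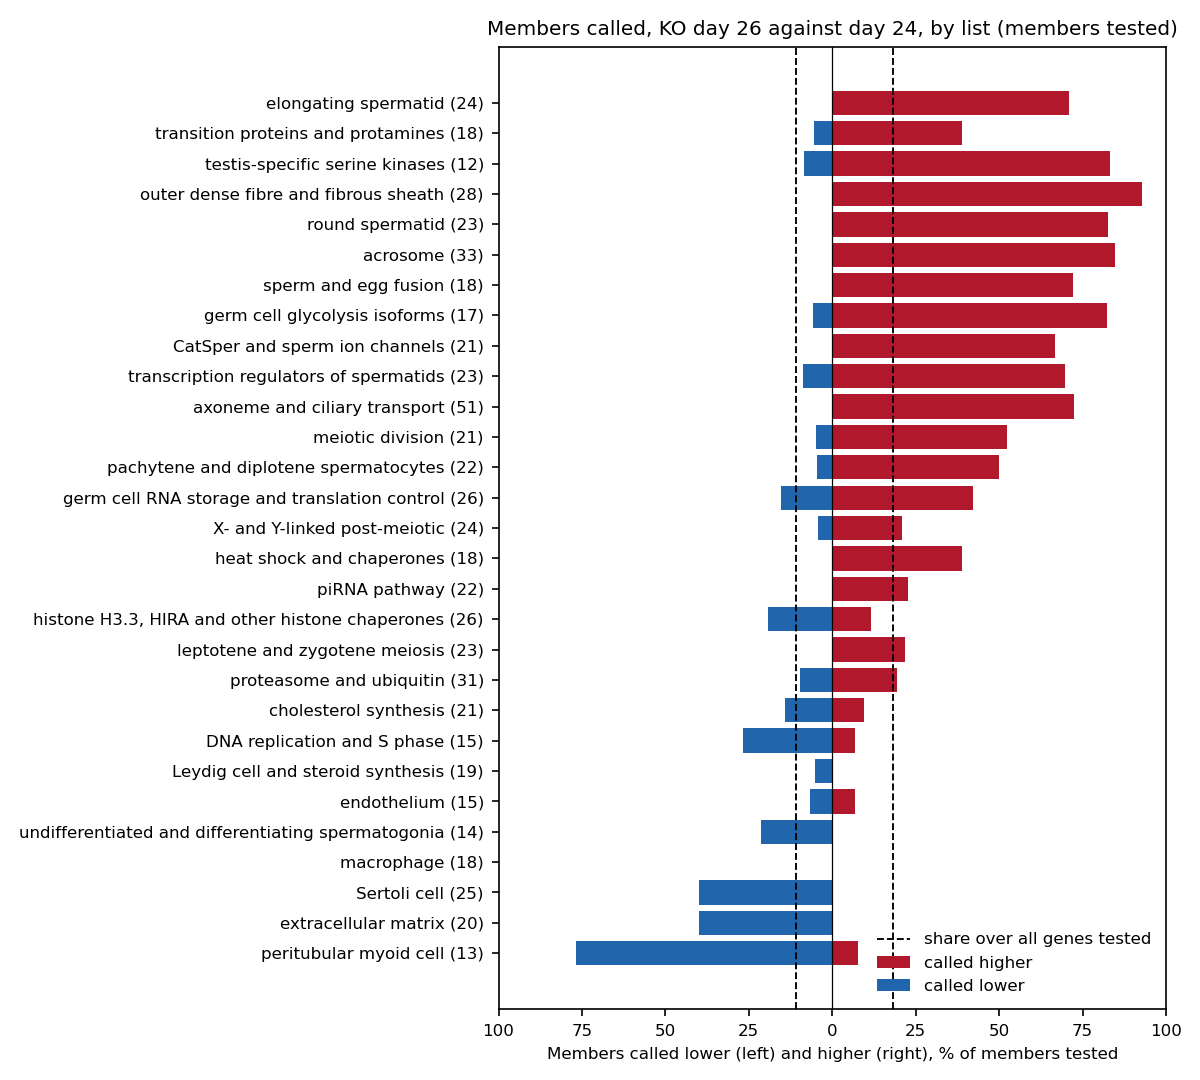
Share of the tested members of 29 gene lists called higher (red, right) or lower (blue, left) in KO at day 26 against day 24, ordered by the median log2 fold change, with the number tested in parentheses. Dashed lines mark the share over all genes tested, 18.1% higher and 11% lower; sperm tail, acrosome and spermatid lists lie far to the right of it and the peritubular list far to the left.

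The other sperm programmes rose with these. Of 12 testis-specific kinases, 10 were called higher and 1 lower, of 21 CatSper and sperm ion channel genes 14 were higher and 0 lower, and of 17 glycolysis genes of germ cells 14 were higher and 1 lower. Without KO_d26_2 these counts of higher genes were 3, 6 and 9. The kinase called lower was *Stk31*, whose call was lost without any 1 of the 4 KO libraries. *Tssk6*, needed for the change of chromatin in spermatids, went from 18.1 and 9.39 to 46 and 36.6 CPM, and the call (adjusted p 0.034) was lost in 5 fits with a library left out (0.0723 to 0.127). *Catsper1*, a pore subunit of the calcium channel of sperm, rose from 40.3 and 50.2 to 100 and 117 CPM (log2 fold change 1.26, SE 0.208, adjusted p 0.00543; 0.0522 without KO_d26_2). *Adcy10*, the soluble adenylyl cyclase that sperm motility depends on, rose from 194 and 186 to 290 and 297 CPM in KO and from 132 and 110 to 274 and 282 CPM in WT. *Gapdhs*, the sperm form of glyceraldehyde-3-phosphate dehydrogenase, rose 2.66-fold, from 118 and 81.7 to 257 and 274 CPM (log2 fold change 1.41, SE 0.193, adjusted p 0.00271), with 1.49 in WT. *Slc2a5*, a fructose transporter, rose by 0.73 (SE 0.0861), and *Ldhc*, the germ cell lactate dehydrogenase, by 0.40 (SE 0.0709). *Slc16a1*, a lactate and pyruvate transporter, was the member called lower, from 84.7 and 77.3 to 59.9 and 54.9 CPM, at an adjusted p of 0.00837 that rose to 0.0718 without KO_d24_1 and 0.0948 without KO_d26_2. *Slc2a3*, the germ cell glucose transporter, did not pass, at 1403 and 1360 and then 1602 and 1550 CPM.

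Genes of elongating spermatids had the largest median, 1.28 in KO and 1.56 in WT, with 17 of 24 called higher and 0 lower in KO and 21 higher in WT. In fits without 1 KO library, 11 (without KO_d26_2) to 21 (without KO_d24_1) were called higher in KO. DESeq2 on the same 8 libraries called 21 in KO. *Spata3*, a late spermatid gene, rose 3.42-fold, from 31.7 and 21.9 to 82.8 and 100 CPM (log2 fold change 1.77, SE 0.249, adjusted p 0.00356), and *Spata6*, which links head and tail, from 300 and 282 to 457 and 495 CPM. *Prm1*, protamine 1, was at 448 and 148 CPM at day 24 and at 737 and 797 CPM at day 26. The days do not overlap, but the day 24 libraries differ from each other by more than the day 26 libraries do, and the log2 fold change of 1.36 (SE 0.72) had an adjusted p of 0.234. In WT it was at 34.7 and 47.6 CPM at day 24, below both KO libraries, and at 942 and 383 CPM at day 26, on either side of them. The WT change of 4.01 (SE 0.812) had an adjusted p of 0.0725, and the difference between genotypes was -2.65 (unadjusted p 0.0595). *Tnp2*, *Prm2* and *Tnp1*, which encode transition protein 2, protamine 2 and transition protein 1 and were added after their values were seen, also had days that do not overlap in KO and changes that did not pass. *Tnp2* was at 221 and 85.4 and then at 545 and 536 CPM in KO (log2 fold change 1.82, adjusted p 0.0761), and at 26 and 34.3 and then at 422 and 245 CPM in WT. *Prm2* was at 190 and 72.6 and then at 450 and 381 CPM in KO (1.66, adjusted p 0.0993), and at 14.5 and 25.1 and then at 334 and 225 CPM in WT. *Tnp1* was at 161 and 55.6 and then at 282 and 219 CPM in KO (1.21, adjusted p 0.237), and at 23.9 and 20.5 and then at 263 and 124 CPM in WT. For all 4 genes the KO day 24 libraries lie above the WT day 24 libraries and differ from each other by more than 2-fold, with KO_d24_1 the higher. *Spem1* (WT day 24 at 6.76 and 7.49 CPM), *Tssk6* (3.19 and 4.81 CPM) and *Calr3* (9.21 and 9.41 CPM) were also higher in KO at day 24, and at day 26 the genotypes overlap for the latter 2 and not for *Spem1*. The elongating list scored 3.11 and 2.44 in the KO day 24 libraries and 1.88 and 1.82 in WT, then 4.08 and 4.11 against 3.93 and 3.57 (mean centred log2 CPM). Over this list the differences within a replicate number were 1.01 for number 1 and 1.75 for number 2 in KO, the widest gap between the numbers among the germ cell lists.

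Of 18 transition protein and protamine genes and their partners in histone removal, 7 (38.9%) were called higher and 1 (5.56%) lower, with a median of 0.91. Over all genes the shares were 18.1% and 11%. *H1fnt*, the spermatid linker histone H1T2 (chromosome 15), rose from 53.1 and 33.1 to 103 and 98.4 CPM (log2 fold change 1.22, SE 0.222, adjusted p 0.00811; 0.0593 without KO_d26_2). *Psme4*, which encodes PA200, the proteasome activator that degrades acetylated histones, rose from 652 and 616 to 891 and 870 CPM (0.47, SE 0.0841, adjusted p 0.00344). *Hist1h1t*, the linker histone of spermatocytes, was the member called lower, from 628 and 630 to 493 and 515 CPM (-0.32, SE 0.0825, adjusted p 0.0177), a call lost without any 1 KO library (0.0925 to 0.115). Without KO_d26_2 the list had 2 calls higher, without KO_d24_2 4. The promoters of *Prm1*, the protamine gene on which the days are least settled, and *H1fnt*, the member with the largest called rise, are shown. Each is the 250 bases before the RefSeq start on build GRCm38.p6, minus strand, from chr16:10796824-10797073 for *Prm1* and chr15:98257308-98257557 for *H1fnt*, read 5′ to 3′ along the gene.
Prm1: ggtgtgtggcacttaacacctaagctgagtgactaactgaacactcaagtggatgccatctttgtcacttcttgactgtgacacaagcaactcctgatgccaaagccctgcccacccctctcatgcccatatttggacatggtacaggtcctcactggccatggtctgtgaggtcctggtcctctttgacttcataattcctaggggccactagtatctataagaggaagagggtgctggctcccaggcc
H1fnt: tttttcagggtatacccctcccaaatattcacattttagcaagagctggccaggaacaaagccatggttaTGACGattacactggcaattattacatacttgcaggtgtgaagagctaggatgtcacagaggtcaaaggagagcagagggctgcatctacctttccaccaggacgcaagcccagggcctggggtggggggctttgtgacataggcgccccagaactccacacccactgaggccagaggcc
Capitals mark a match to 1 of 4 motifs searched on both strands, namely the cAMP response element TGACGTCA, its core TGACG, the MYB site AACNGTT and the X box of RFX factors, of which the second lies within the first. *H1fnt* holds TGACG from 180 bases before the start, and *Prm1* holds none of these letters in the window. TGACG was found in 29% of 2465 promoters of genes called higher, 28.2% of 1461 of genes called lower and 27.5% of all 13310. Among 350 genes called higher by over 2-fold the share was 20.6%. Over the gene lists it ran from 0%, as for 14 matrix promoters, to 54.2% (13 of 24) for histone chaperones. The proteasome and ubiquitin list was next at 50% (13 of 26), and heat shock genes were at 42.9% of 14. The spread over the lists was not tested. For TGACGTCA the shares were 2.88%, 2.12% and 2.82%, for AACNGTT 4.22%, 2.81% and 3.92%, and for the X box 0.243%, 0.0684% and 0.135%.

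Regulators and RNA storage factors of spermatids gave calls that were mostly higher. Of 23 transcription regulators, 16 were called higher and 2 lower, with a median of 0.45, and 7 were higher without KO_d26_2, 9 without KO_d24_1. *Kif17*, a kinesin that moves the coactivator ACT out of the nucleus, went from 71.2 and 72.3 to 145 and 159 CPM (log2 fold change 1.08, SE 0.18, adjusted p 0.00471). *Papolb*, the testis poly(A) polymerase, rose from 494 and 488 to 748 and 811 CPM (0.67, SE 0.0815). *Tcfl5*, a transcription factor of spermatocytes and spermatids, rose by 0.62 (SE 0.109, adjusted p 0.00346; 0.0541 without KO_d26_2), and *Brdt*, the testis bromodomain protein that binds acetylated histones, by 0.40 (SE 0.106, adjusted p 0.0194; 0.0932 to 0.167 without KO_d24_1, KO_d24_2 or KO_d26_2). *Kmt2d*, a histone methyltransferase, fell by 0.35 on the log2 scale, from 493 and 486 to 389 and 381 CPM, and the call was lost without any 1 KO library (0.0548 to 0.0912). Without any 1 KO library 0 regulators were lower. Among 26 genes of RNA storage and translation control, 11 (42.3%) were called higher and 4 (15.4%) lower, beside 18.1% and 11% of all genes. Without 1 KO library, 8 to 10 were higher and 0 to 2 lower. *Ybx2*, which encodes MSY2, a protein that packages stored messages, went from 855 and 897 to 1390 and 1668 CPM (0.80, SE 0.125, adjusted p 0.00235), against 992 and 809 and then 972 and 1128 CPM in WT. *Pabpc1*, the poly(A)-binding protein, rose by 0.49 (SE 0.112, adjusted p 0.0103; 0.0557 to 0.109 without KO_d24_1, KO_d24_2 or KO_d26_2). *Tdrd6*, of the chromatoid body, rose by 0.51 (SE 0.0864). The piRNA pathway had 5 of 22 genes called higher and 0 lower, a share near that of all genes. *Piwil1*, which encodes MIWI, was at 505 and 545 and then at 575 and 549 CPM.

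Meiotic genes gave calls that were mostly higher. Of 22 pachytene and diplotene genes 11 were called higher and 1 lower, and of 21 meiotic division genes 11 were higher and 1 lower. The medians were 0.30 and 0.32 beside 0.10 and -0.00 in WT. Within numbers 1 and 2 the pachytene and diplotene medians were 0.34 and 0.23 in KO and 0.01 and 0.21 in WT. Those of meiotic division were 0.30 and 0.34 in KO and -0.08 and 0.14 in WT. Without KO_d26_2 there were 6 and 7 higher. *Ccna1*, cyclin A1 of the first meiotic division, rose 1.98-fold, from 100 and 107 to 177 and 232 CPM (log2 fold change 0.98, SE 0.119, adjusted p 0.00102), whereas WT was at 127 and 120 and then at 130 and 138 CPM. *Espl1*, separase, went from 148 and 131 to 198 and 193 CPM, against 178 and 163 and then 151 and 152 CPM in WT. *Aurka*, a spindle kinase, rose by 0.54 (SE 0.08), and *Hspa2*, a chaperone that spermatocytes need to leave prophase, from 1036 and 1000 to 1463 and 1483 CPM. The differences between genotypes of these 4 genes lay between 0.48 and 0.86, with edgeR adjusted p of 0.114 to 0.124. *Cdc25b*, a phosphatase that activates the cyclin-dependent kinases, was called lower from 6.99 and 4.83 to 2.95 and 2.9 CPM, a call lost without KO_d24_1, KO_d26_1 or KO_d26_2 (0.081 to 0.135), and *Bub1*, of the spindle checkpoint, was at 193 and 206 and then at 213 and 209 CPM. Of 23 leptotene and zygotene genes, 5 were called higher and 0 lower, 21.7% beside 18.1% of all genes, and 1 was kept in every fit with a library left out. *Sycp2*, of the synaptonemal complex, was at 1034 and 1154 and then at 1034 and 1005 CPM, with overlapping days.

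The calls among spermatogonial and S phase genes were mostly lower, 21.4% and 26.7% of those tested beside 11% of all genes. All 14 spermatogonial genes tested had a negative log2 fold change in KO, as did 51.8% of all genes, and 71.4% of the 14 had one in WT. In KO 3 were called lower and 0 higher, with a median of -0.28 (-0.17 in WT). *Dazl*, an RNA-binding protein of germ cells, fell from 426 and 441 to 351 and 371 CPM (log2 fold change -0.26, adjusted p 0.0364), and *Ccnd2*, cyclin D2, from 73.9 and 60 to 42.4 and 41.9 CPM (-0.67, adjusted p 0.0212). Both calls were lost with a KO library left out, without any 1 of the 4 for *Dazl* (0.125 to 0.197) and without KO_d24_1, KO_d26_1 or KO_d26_2 for *Ccnd2* (0.0999 to 0.135). *Kit*, the receptor of differentiating spermatogonia, was at 56.1 and 55 and then at 42.9 and 44 CPM (adjusted p 0.071). Of 15 S phase genes 4 were called lower and 1 higher, with a median of -0.20, and in WT 5 were lower and 0 higher, with a median of -0.39. The higher one, *Mcm7*, a helicase subunit, went from 155 and 149 to 192 and 189 CPM and lost its call without any 1 KO library (0.0722 to 0.102), and *Mki67*, a marker of cycling cells, was at 271 and 268 and then at 236 and 222 CPM. Without KO_d24_1, KO_d26_1 or KO_d26_2, 0 genes of either list were called lower.

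Histone chaperones are the machinery on which the study centred. Of 26 genes of histone H3.3, HIRA and other histone chaperones, 3 (11.5%) were called higher and 5 (19.2%) lower, beside 18.1% and 11% of all genes. The median of -0.04 was near that of all genes (-0.02). Without 1 KO library, 0 to 2 were higher and 1 or 2 lower. *Chaf1a*, the large subunit of the chaperone CAF-1, rose from 112 and 105 to 157 and 144 CPM (log2 fold change 0.47, SE 0.0924, adjusted p 0.00512; 0.0507 without KO_d24_2). *Anp32e*, a chaperone that removes H2A.Z, fell from 41 and 34.1 to 25.1 and 24.2 CPM (-0.61, SE 0.112, adjusted p 0.0041; 0.0559 without KO_d26_2), and *Npm1*, nucleophosmin, fell by 0.25 on the log2 scale (adjusted p 0.0491; 0.084 to 0.309 without any 1 KO library). *Nasp*, a chaperone of H3 and H4 and the most abundant of the list, was at 680 and 734 and then at 928 and 797 CPM without a call (adjusted p 0.202). *H3f3b*, which encodes H3.3, was at 500 and 526 and then at 505 and 504 CPM. *Ubn2* was at 276 and 288 and then at 274 and 278 CPM, and neither was called.

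**Figure D3:**
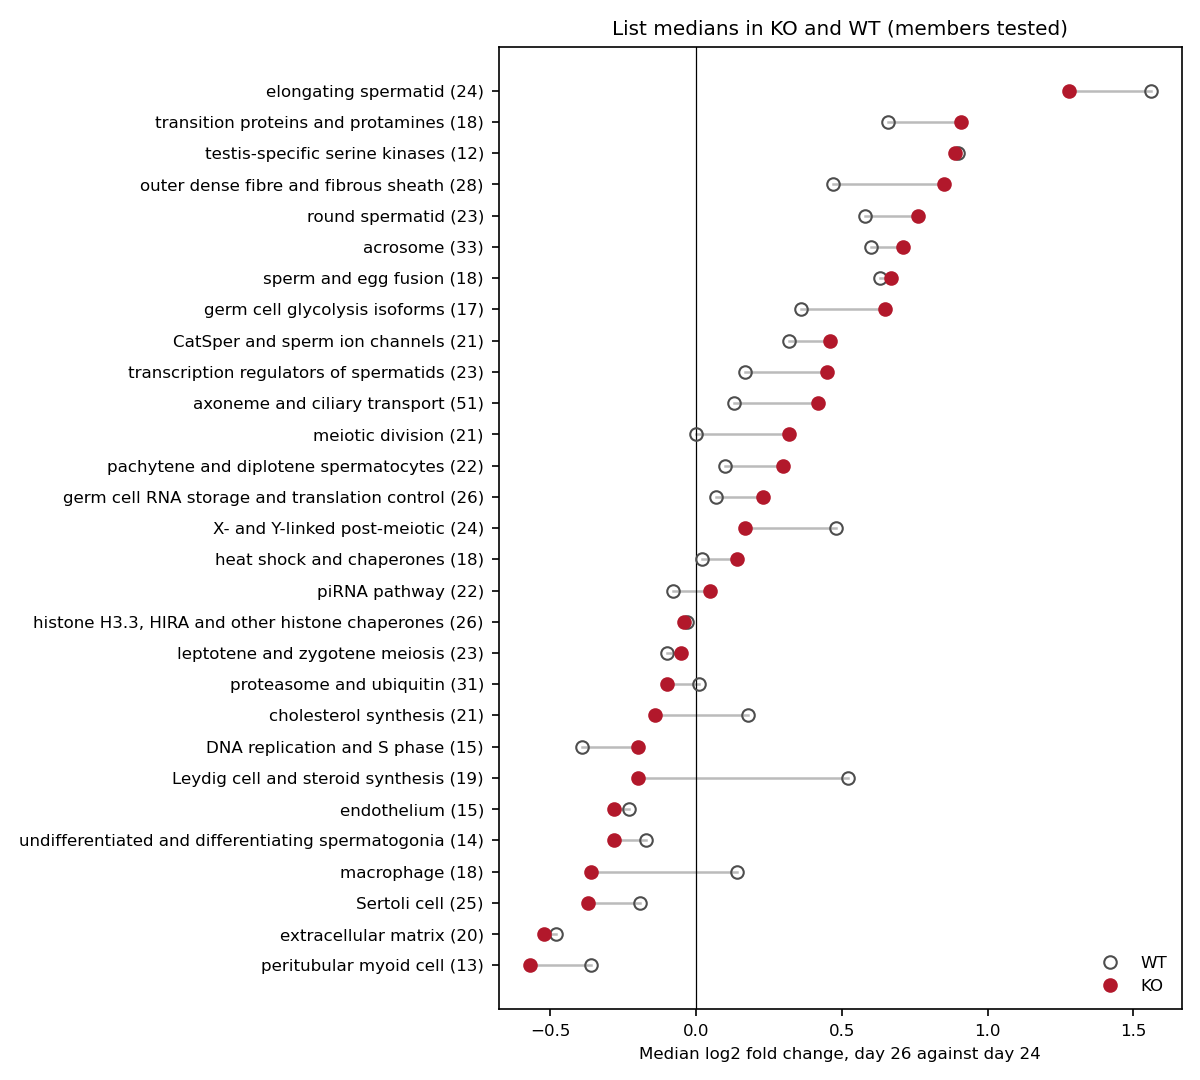
Median log2 fold change of day 26 over day 24 for 29 gene lists in KO (filled red) and WT (open grey), ordered by the KO median, with the number of genes tested in parentheses. Spermatid lists are positive in both genotypes, with elongating spermatid genes at 1.28 in KO and 1.56 in WT; Leydig genes are at -0.20 and 0.52.

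Among the somatic genes, those of peritubular myoid cells were mostly lower in KO at day 26. Of 13 peritubular myoid genes, 10 were called lower and 1 higher, and their summed level was 850 and 844 CPM at day 24 and 644 and 603 CPM at day 26 (946 and 1021 CPM, then 864 and 718 CPM, in WT). *Acta2*, vascular smooth muscle actin, fell from 238 and 244 to 170 and 160 CPM (log2 fold change -0.54, SE 0.117, adjusted p 0.00824). *Mylk*, myosin light chain kinase, fell from 180 and 179 to 133 and 131 CPM (-0.45, SE 0.0914), and *Myh11*, smooth muscle myosin, from 120 and 135 to 91.7 and 70.2 CPM (-0.66, SE 0.129). Their calls were lost without KO_d26_2 (adjusted p 0.0622 to 0.0912), that of *Acta2* also without KO_d24_2 (0.0534), and the list then had 1 call lower. *Actg2*, the enteric smooth muscle actin, went the other way, from 30 and 26.7 to 66.8 and 70.9 CPM (1.28, SE 0.0994, adjusted p 9.24e-04), and from 32.6 and 30.7 to 60 and 55.7 CPM in WT. Of 20 matrix genes 8 (40%, beside 11% of all genes) were called lower and 0 higher, with 1 lower without KO_d26_2 and 3 or 4 without another KO library. Their summed level was 5251 and 5075 and then 3969 and 3659 CPM, with a median log2 fold change of -0.52. The fall was alike in WT, with a median of -0.48, 2 called lower and a summed level of 5684 and 8250 and then 4537 and 5378 CPM. *Lamb1*, a laminin chain of basement membranes, fell from 135 and 127 to 69.3 and 64.3 CPM (adjusted p 0.0195; 0.0594 to 0.131 in 6 fits with a library left out), and *Col3a1*, a fibrillar collagen, was at 1022 and 993 and then at 753 and 730 CPM without a call. A CPM is a share of its library, and the part of the rise of germ cell genes in these falls was not tested.

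Of 25 Sertoli cell genes 10 (40%, beside 11% of all genes) were called lower and 0 higher. Their summed level was 2680 and 2543 CPM at day 24 and 2346 and 2335 CPM at day 26 (2561 and 2456, then 2432 and 2094 CPM, in WT). *Ctsl*, a protease that Sertoli cells secrete, fell from 314 and 304 to 256 and 249 CPM (adjusted p 0.0281), and *Inhba*, an activin and inhibin subunit, from 1.82 and 2.31 to 0.481 and 0.93 CPM (adjusted p 0.0216). Both calls were lost without any 1 KO library (0.0535 to 0.173), and the list had 1 call without KO_d26_2, 2 without KO_d24_1, 3 without KO_d26_1 and 6 without KO_d24_2. *Clu*, clusterin, was at 867 and 870 and then at 920 and 954 CPM, and *Inha*, inhibin alpha, at 175 and 163 and then at 149 and 147 CPM, neither with a call. The 19 Leydig genes gave 1 call, lower (*Thbs2*, lost without any 1 of the 4 KO libraries, adjusted p 0.0503 to 0.257), a median of -0.20 against 0.52 in WT, and a summed level of 1652 and 1944 and then 1723 and 1594 CPM. The medians within numbers 1 and 2 were 0.04 and -0.20 in KO and 1.17 and 0.17 in WT. *Cyp17a1*, an enzyme of androgen synthesis, was at 298 and 384 and then at 396 and 382 CPM in KO, with overlapping days, and at 106 and 245 and then at 681 and 442 CPM in WT. *Cyp11a1*, which starts steroid synthesis, was at 210 and 277 and then at 222 and 169 CPM in KO and at 115 and 175 and then at 504 and 265 CPM in WT. The difference between genotypes had an unadjusted p of 0.0792 for *Cyp17a1* and 0.0328 for *Cyp11a1*, and an edgeR adjusted p of 0.258 for the latter. Of 18 macrophage genes 0 were called with edgeR, 2 had an unadjusted p under 0.05 and DESeq2 called 2, and their summed level was 443 and 495 and then 349 and 378 CPM. *Mrc1*, a receptor of resident macrophages, was at 130 and 144 and then at 98.9 and 109 CPM. Of 15 endothelial genes 1 was called in each direction, with *Cdh5* (lost without KO_d24_1, KO_d24_2 or KO_d26_1, adjusted p 0.0865 to 0.177) lower and *Sox17* higher, from 7.2 and 7.74 to 14.6 and 14.5 CPM, a transcription factor gene that also gives a transcript in spermatids.

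Genes of the X chromosome were lower at day 26 than at day 24 in KO. The X is silenced in meiosis and stays largely repressed in round spermatids, with a set of genes that are active again. That the X and Y are lower in KO than in WT at day 26 was known from these libraries when the comparison was made, so the values are a description. Of 707 X-linked genes tested, 163 (23.1%) were called lower and 43 (6.08%) higher, beside 10.5% and 18.7% of 16050 autosomal genes. The median log2 fold change was -0.29 on the X and -0.01 on the autosomes, and no autosome had a median below -0.07. The medians within a replicate number were -0.29 and -0.25. In WT the X median was -0.03, with 8 genes called lower and 63 higher, and the median difference between genotypes was -0.26. For 120 of the 707 this difference had an unadjusted p under 0.05, beside 16.6% of all genes. Relative to the autosomes, the X stood at -0.06 and -0.09 in KO at day 24 and at -0.35 and -0.38 at day 26, and at -0.11 and 0.06, then -0.05 and -0.11, in WT (difference of median centred log2 CPM). The 2 KO libraries of day 26 thus lie below the other 6.

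The share called lower rose with the level of the genes, when X-linked genes are split evenly in 3 by mean level, from 4 of 236 at low to 58 of 235 at middle and 42.8% of 236 at high level, beside 2.91%, 12.4% and 13.1% of autosomal genes of the same levels. The X medians at these levels were -0.16, -0.32 and -0.34, and the autosomal medians -0.08, -0.16 and 0.07. The calls are the part that depends on single libraries. Lower calls numbered 28 without KO_d26_2 and 49 to 75 without 1 of the other KO libraries, and higher calls 24 without KO_d24_1, 10 without KO_d24_2, 26 without KO_d26_1 and 8 without KO_d26_2, while the median of the X and Y genes stayed between -0.30 and -0.27 in all 8 fits without 1 library and between -0.34 and -0.21 under the other scalings. *Usp26*, a ubiquitin protease gene of the germ line, fell from 59.5 and 54.4 to 42.5 and 41.6 CPM (log2 fold change -0.44, adjusted p 0.0179; 0.0784 to 0.123 without KO_d24_1, KO_d26_1 or KO_d26_2). *Pola1*, the catalytic subunit of DNA polymerase alpha, fell in KO from 22.8 and 20.7 to 15.5 and 17.3 CPM (adjusted p 0.0351; 0.0778 to 0.197 without any 1 KO library) and in WT from 26.7 and 28.2 to 18.8 and 20.8 CPM. *Taf7l*, a germ cell form of a TFIID subunit, was at 58.3 and 56 and then at 54.2 and 47.3 CPM without a call. Of 24 sex-linked genes that are active after meiosis, 5 (20.8%, beside 18.1% of all genes) were called higher and 1 lower in KO, with a median of 0.17, and 10 higher and 0 lower in WT, with a median of 0.48. In KO, 2 were higher without KO_d24_2 or KO_d26_2 and 3 without KO_d26_1. *Tsga8*, a spermatid gene, rose from 64.4 and 63.2 to 123 and 119 CPM (log2 fold change 0.92, SE 0.102, adjusted p 9.24e-04), as *Akap4* did.

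**Figure D4:**
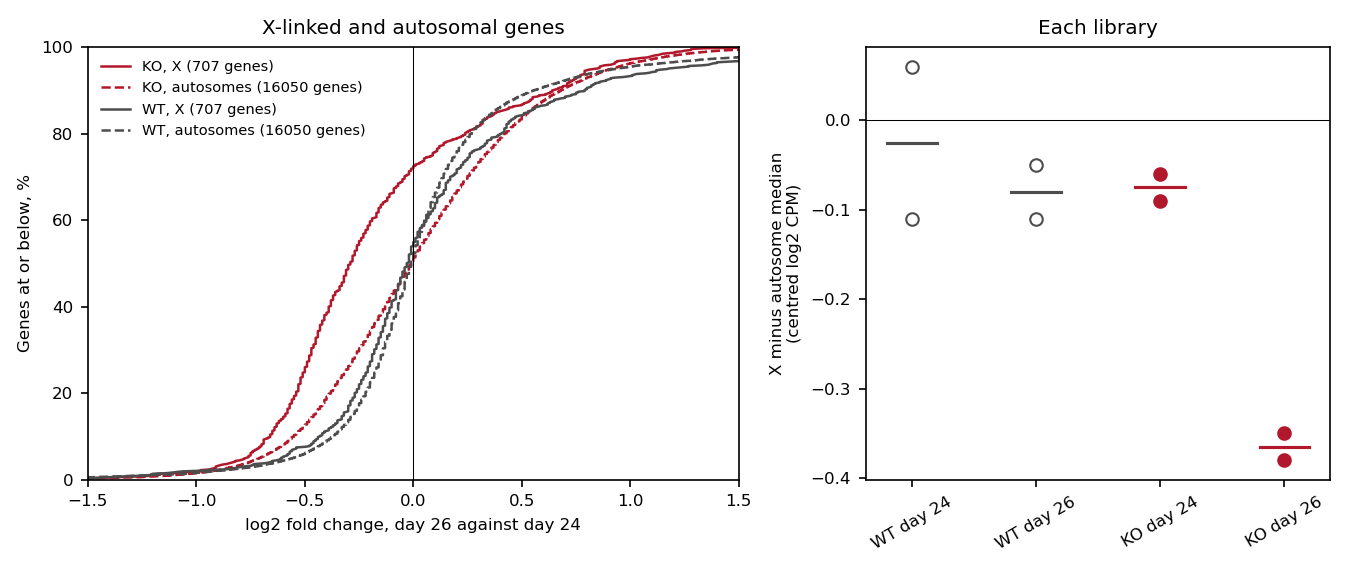
Left, cumulative share of genes (%) against the log2 fold change of day 26 over day 24, for X-linked (solid) and autosomal (dashed) genes in KO (red) and WT (grey). Right, X minus autosome median of centred log2 CPM in each library (points) with group means (bars); KO at day 26, at -0.35 and -0.38, is below the other 6 libraries.

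The genes with the largest single changes were mostly of low level. Among called genes with a mean of at least 1 CPM on one of the days, the 12 largest rises ran from a log2 fold change of 1.86 to 2.35, and 10 of them were not called by DESeq2 on the same 8 libraries (all but *Spata32* and *Trim42*). *Vstm2l*, which encodes a secreted protein, led with 0.21 and 0.397 CPM (3 and 6 counts) and then 1.79 and 1.39 CPM, against 0.499 to 0.636 CPM in WT, and lost its call without KO_d24_1 (adjusted p 0.064). *1700080N15Rik*, annotated as an antisense RNA, went from 0.769 and 0.992 to 3.5 and 3.95 CPM. *Fev* and *Six2*, both transcription factor genes, went from 0.349 and 0.992 to 2.27 and 3.31 CPM and from 0.419 and 1.06 to 2.27 and 3.6 CPM, and both lost their call without KO_d24_1 or KO_d26_2 (0.0814 to 0.123). *Spata32*, a spermatid gene, rose from 6.29 and 2.98 to 15.3 and 19.6 CPM, and from 1.13 and 0.756 to 14.5 and 9.98 CPM in WT (KO adjusted p 0.0055; 0.0559 without KO_d26_2). *Trim42*, a testis gene, rose from 9.57 and 4.43 to 24.6 and 26.5 CPM, a call lost in 4 fits with a library left out (0.0508 to 0.142). The 12 largest falls ran from -1.56 to -2.29, and each lost its call in at least 3 of the 8 fits without 1 library, and 11 (all but *Dlk1*) were not called by DESeq2. *Dlk1*, a gene of Leydig cell precursors, fell from 7.2 and 2.51 to 1.72 and 1.22 CPM, and its change was -0.78 without KO_d24_1. *Tnfrsf11b*, osteoprotegerin, fell from 0.978 and 1.72 to 0.412 and 0.407 CPM and in WT from 2.63 and 1.1 to 0.289 and 0.499 CPM. *Foxc1*, a transcription factor gene, fell from 1.26 and 0.86 to 0.344 and 0.349 CPM.

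Among the 8 genes with the smallest p for a difference between genotypes, none passed adjustment (edgeR adjusted p 0.114), and 7 rose in KO. Beside *Dnaic2*, *Rsph6a* and *Tcte1* they were *Pnpla2*, *Fa2h*, *Upk3b* and the protein-coding genes *CK137956* and *Gm5114*. *Pnpla2*, the triglyceride lipase ATGL, was at 152 and 151 and then at 242 and 266 CPM in KO and at 187 to 194 CPM in WT. *Fa2h*, a fatty acid hydroxylase, was at 52.1 and 49.9 and then at 94.6 and 108 CPM in KO and at 62.7 to 73 CPM in WT. *CK137956* went from 115 and 112 to 182 and 212 CPM, with WT at 118 to 131 CPM. *Gm5114* went from 9.29 and 10.2 to 15.2 and 20 CPM in KO and from 17 and 16.2 to 10.6 and 10.8 CPM in WT. The KO rise of *Gm5114* lost its call without KO_d26_2 (adjusted p 0.0621). *Upk3b*, a gene of urothelium and mesothelium, fell by less in KO than in WT, from 6.29 and 8.27 to 4.88 and 2.96 CPM in KO and from 9.83 and 10.3 to 0.693 and 0.998 CPM in WT, and its KO call was lost without KO_d24_1, KO_d24_2 or KO_d26_2 (0.0567 to 0.244).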

How the data were processed

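RNA of testis was sequenced with a stranded total RNA kit after ribosomal RNA depletion. Per the submitters' processing notes and the study's methods, the authors aligned reads to mm10 with STAR 2.7.11b and deposited raw HTSeq counts per gene, 1 table per library with 24456 gene rows. The strand was used and reads with more than 1 alignment were not counted, so genes with near-identical copies are undercounted. Rows that name no gene were left out; in the 4 KO libraries 45.9% to 53.7% of reads fell in no exon and 7.3% to 8.35% were not unique.

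Members, gene lists and tests were chosen with earlier results of these data known. Genes were kept by filterByExpr (minimum count 10), which left 16816. The reported fit is edgeR 4.0.16 (R 4.3.3), a two-sided robust quasi-likelihood test over the 8 libraries of days 24 and 26 in 4 groups, with TMM factors over all 24 libraries and Benjamini-Hochberg adjustment over all genes tested. This differs from a fit over all 24 libraries, whose calls are given beside it. DESeq2 1.42.0, limma 3.58.1, other scalings and filters, and leaving out each library were alternatives. Replicates were not duplicates of each other by a chi-square test of their counts. On simulated counts for KO day 26 against day 24 over 16816 genes, 65% of 100 genes changed 2-fold and 89% of 100 changed 4-fold were recovered, with 11 false calls. The simulation changed only these genes, as many up as down, and gave a gene the same spread in all groups. In the data 29.1% of genes were called and the spread was unequal (0.0787 in KO, 0.176 in WT). The false calls are therefore no estimate for the 4897 calls.

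Genes named are the 12 largest rises and 12 largest falls called at 1 CPM or more, the 8 smallest p of the difference between genotypes, and from each list the 4 of highest level plus the largest called change in each direction; exceptions are marked, and not every gene so chosen is printed. Gene positions are those of the GENCODE annotation of GRCm38. Promoters were matched by symbol to RefSeq for 13310 genes tested. Protein sequences were not used here.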

Additional observations from a re-analysis of the deposited data

How the results depend on the processing

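With all 24 libraries in the fit the KO comparison called 0 genes and the WT comparison 37; without WT_d20_2 in that fit the counts were 1290 and 102. Leaving out 1 library gave 1240 to 5381 calls in KO, 712 to 1502 in WT (4897 and 1337 in the reported fit) and 0 to 433 for the difference between genotypes, for which DESeq2 called 547. The 2 groups of a comparison alone gave 6851 calls in KO and 633 in WT, and limma voom 6827 and 814. The genes called higher were 62.3% of KO calls in the reported fit, 75.2% under DESeq2 size factors and 52.1% under upper quartile scaling; these scalings moved the median of all genes to 0.057 and -0.074 from -0.020. The median of X- and Y-linked genes (-0.29) was -0.21 and -0.34 under them, -0.26 without a filter, -0.31 with a minimum count of 30 and -0.30 to -0.27 with 1 library left out. Same-numbered samples deviated together (correlations 0.377 to 0.456), but no source says that a number marks a shared animal, litter or day, so the reported fit has no block. The fit with the replicate number as a block called 4775 genes in KO, 1314 in WT and 0 for the difference, and of the genes printed it lost the calls of *Dazl*, *Npm1*, *Stk31* and *Tnfrsf11b*.

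The fits chosen after seeing the data, 2 in all, used 1 KO library a day, assumed to vary like the WT groups. The libraries numbered 1 gave 0 calls in KO (3110 at an unadjusted p under 0.05) and 661 in WT. Those numbered 2 gave 215 and 647, with a median of -0.26 for X- and Y-linked genes. *Cyp17a1* had a log2 fold change of -0.01 with number 2 and *Cyp11a1* 0.08 with number 1, each opposite in sign to the reported, uncalled value. With 2 libraries a group and an unequal spread between genotypes and days, the count of calls is the least settled result; low genes such as those among the largest falls rest on few counts.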

Other observations

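Of 21 cholesterol synthesis genes 2 (9.52%) were called higher and 3 (14.3%) lower in KO, beside 18.1% and 11% of all genes. *Fdft1*, squalene synthase, rose from 195 and 200 to 316 and 335 CPM (log2 fold change 0.72, SE 0.081, edgeR adjusted p 9.24e-04), and *Hmgcs1*, which acts earlier in the pathway, fell from 228 and 224 to 144 and 155 CPM (-0.60, SE 0.107, adjusted p 0.00354). In WT, *Hmgcs1* was at 210 and 235 and then at 271 and 219 CPM. Of 18 heat shock genes 7 (38.9%, beside 18.1% of all genes) were called higher and 0 lower, with 4 higher without KO_d26_2. *Dnajb8*, a chaperone of testis, rose from 26.2 and 18.4 to 55.3 and 74.1 CPM (1.54, SE 0.252, adjusted p 0.00559). Of 31 proteasome and ubiquitin genes 6 (19.4%) were higher and 3 (9.68%) lower, shares near those of all genes, and without 1 KO library 3 or 4 were higher and 0 to 2 lower. *Klhl10*, a substrate adaptor of a spermatid ubiquitin ligase, rose from 85.2 and 89.9 to 186 and 213 CPM (1.19, SE 0.166, adjusted p 0.00223).

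Of 1053 long noncoding RNAs tested, 181 (17.2%) were called higher and 39 (3.7%) lower, with a median of 0.28 beside -0.02 for all genes, and 25 were higher without KO_d26_2. Of 26 snoRNAs 7 (26.9%, beside 11% of all genes) were called lower and 0 higher in KO, with a median of -0.82. The KO difference was -1.45 between the libraries numbered 1 and -0.16 between those numbered 2, and 1 was called without KO_d24_1. In WT 3 were called lower and 0 higher, with a median of -1.22, and the differences were -0.97 and -1.11 within numbers 1 and 2. A list of 5 genes was chosen for lower levels in KO than in WT in these same libraries, so that difference is a description. *Asb4* was at 6.01 and 8.27 and then at 8.11 and 11.2 CPM in KO, against 47.5 to 64.9 CPM in WT, and *Arfgef3* at 4.12 and 5.23 and then at 3.92 and 3.89 CPM, against 18.2 to 25.2 CPM. Of the 5 genes 0 were called between the KO days with edgeR, and 1 had an unadjusted p under 0.05.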
